A study of Mus musculus with 18 samples.

Results

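The expression of 10 adhesion G protein-coupled receptor genes was followed in NIH 3T3 cells, a line of mouse embryonic fibroblasts. The genes were the rows of the deposited expression table with the symbols Cd97, Gpr56, Gpr124, Gpr125, Gpr126, Lphn1, Lphn2, Eltd1, Celsr1 and Celsr2, 10 of 22019 genes. The set was selected on the signal of Cd97, which is low in the SUN1L libraries, so the values of Cd97 in SUN1L against KDEL cells are given as a description with no test.

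Doxycycline induced either SUN1L, an HA-tagged lumenal domain of SUN1 that disrupts the LINC complex between nucleus and cytoskeleton, or KDEL, a GFP held in the endoplasmic reticulum as the control. All cells received 1 μg/ml doxycycline and spent 48 hr on a gel of 1 kPa or 308 kPa, and KDEL cells on 308 kPa were also given 25 μM Y27 or 10 μM blebbistatin, a myosin II inhibitor. Polyadenylated RNA gave 18 libraries, which keep their serial numbers here. The numbers were 4, 16 and 28 for KDEL cells on 1 kPa, 8, 20 and 32 for KDEL cells on 308 kPa, 3, 15 and 27 for SUN1L cells on 1 kPa, 7, 19 and 31 for SUN1L cells on 308 kPa, 12, 24 and 36 for Y27, and 10 and 22 for blebbistatin. Library 34, which makes up the 18, carries an empty vector and names both inhibitors in its labels, so it was given by value only. SUN1L and KDEL cells are separate stable lines made by retroviral transduction, and the KDEL line was enriched by cell sorting, so an effect of the construct and a difference between the lines cannot be told apart. The study's methods call the replicates of a condition biological, but neither they nor the labels say whether the libraries of a group came from separate cultures, so the p-values measure only the spread between these libraries.

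The libraries held about 12670000 to 19460000 read pairs, estimated from the steps between low values, and 1 read pair was worth 1.70 to 2.49 units of the normalized signal. Sun1, which reads of the construct also feed, was at 38452 to 82617 in the SUN1L libraries and at 2785 to 3799 in the others, as their labels say. All 8 of a list of fibroblast markers were detected, with summed signals of 549900 to 889600 per library, and of 10 leukocyte markers, summed to between 200.4 and 677.5, Cd3e was at the lowest value in every library, while Cd68 (58.7 to 304), Csf1r (13 to 277), Lyz2 (21.4 to 127) and Cd79a (2.3 to 15.3) were above it in all 18. Csf1r was the only leukocyte marker with an unadjusted p under 0.05 in SUN1L cells on 308 kPa, at a log2 fold change of 1.75 (unadjusted p = 0.0321, limma adjusted p = 1). Of 6 endothelial markers, Tek (72.3 to 3928), Flt1 (168 to 815), Cdh5 (7 to 234), Pecam1 (7.87 to 70.3) and Vwf (5.37 to 50.3) were above the lowest value in all 18 libraries. Kdr reached 11.9. Tek had a log2 fold change of 2.85 with Y27 (limma adjusted p = 0.793), and Vwf 1.62 in SUN1L cells on 1 kPa (limma adjusted p = 0.644). Of 5 epithelial markers, Cdh1 (88 to 311) was above the lowest value in all 18 libraries and Krt18 in none. Libraries 3, 7 and 8 stood apart: the mean log2(signal + 1) of 12 mitosis genes was 8.69, 8.92 and 9.32 in them and 11.56 to 12.33 in the other 15. These 3 libraries belong to 3 different groups. For some of the values below, the value without them is also given, but values given once can move without them too.

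Adhesion G protein-coupled receptors join a long extracellular region with adhesion domains to a membrane-spanning receptor, and most cut themselves at a site next to the membrane, so that the outer fragment stays attached without a covalent bond. They bind matrix proteins or molecules on neighbouring cells, and several signal through the G proteins Gα12 and Gα13. The family is best known from leukocytes, the nervous system and blood vessels.

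The members differed widely in level. Of the 10, 7 lay above the lowest value of the table, which is 1, in all 18 libraries. Per kilobase of merged exon, which allows genes to be compared, the mean signal over the 18 libraries was highest for Gpr124, at 1500, followed by Lphn2 at 754, Gpr56 at 531, Gpr125 at 474 and Lphn1 at 463. Cd97 followed at 37.9 per kilobase. Celsr1 (1.23), Eltd1 (0.848), Celsr2 (0.433) and Gpr126 (0.211) were near the detection limit on the same scale. All 10 passed the filter on low values, above 1 in at least 3 of 18 libraries, and entered the tests. Of 20 further genes of the family, 14 passed it and 4 were above 1 in every library: Lphn3 (65.3 to 162), Emr4 (10.3 to 71.0), Celsr3 (14.6 to 85.6) and Gpr116 (2.1 to 54.8). No library held more than 162 signal units of any of these 20 genes, and Gpr123 and Gpr110 were at the lowest value throughout.

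Cd97 codes for a receptor first known from leukocytes, which binds CD55, THY1 and integrins. In KDEL cells on 1 kPa its signal was 288, 262 and 288 in libraries 4, 16 and 28. In SUN1L cells on 1 kPa it was 55.5, 34.4 and 39.1 in libraries 3, 15 and 27. All 3 SUN1L libraries lay far below all 3 KDEL libraries on the soft gel. On 308 kPa, the signal was 110, 174 and 226 in KDEL libraries 8, 20 and 32. It was 26.0, 48.1 and 35.7 in SUN1L libraries 7, 19 and 31. On the stiff gel too, the highest SUN1L library was below the lowest KDEL library. In bulk RNA, fewer cells that express a gene and less RNA per cell cannot be told apart.

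**Figure D1:**
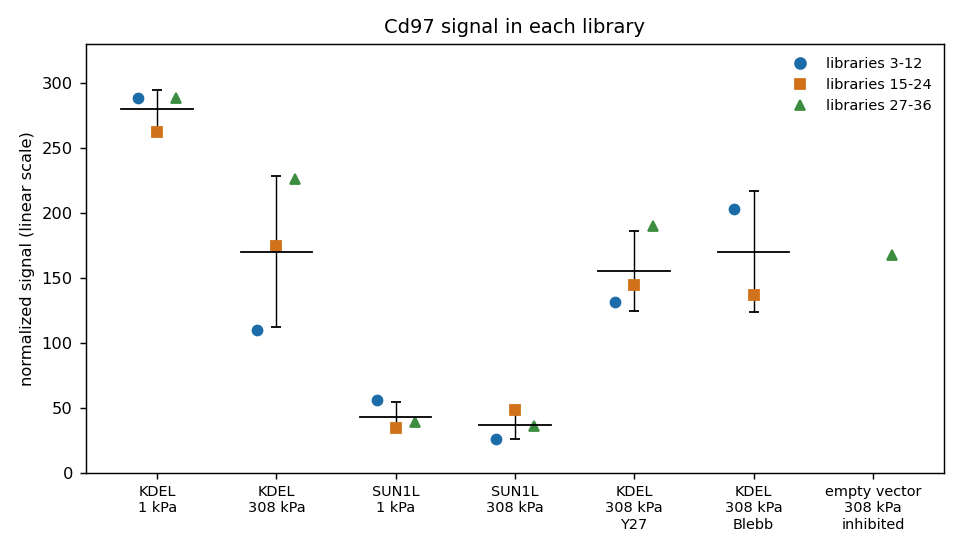
Cd97 normalized signal (linear axis) in each library, by group; marker shapes show the run of serial numbers, horizontal lines the group mean and bars the SD. The 6 SUN1L libraries lie between 26.0 and 55.5 and the other libraries between 110 and 288.

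The group means of Cd97 were 279 ± 15.2 in KDEL and 43 ± 11.1 in SUN1L cells on 1 kPa, and 170 ± 58.1 and 36.6 ± 11 on 308 kPa (SD, n = 3 each). SUN1L against KDEL gave a log2 fold change of -2.70 on the soft gel, -2.17 on the stiff gel and -2.43 as the mean of both, all on the log2(signal + 1) scale. Groups that do not overlap were found for 14.5% of the 16021 genes tested on 1 kPa and for 4.29% on 308 kPa. Within a run of serial numbers, SUN1L libraries had 0.192, 0.131 and 0.136 of the KDEL signal on 1 kPa and 0.237, 0.276 and 0.158 on 308 kPa. The low level was therefore present in each of the 3 runs on both gels. Without libraries 3, 7 and 8 the log2 fold changes were -2.89 and -2.23. A SUN1L library held an estimated 14 to 24 read pairs of Cd97, against 51 to 153 in KDEL cells without inhibitor, so the remaining signal in SUN1L cells rests on few reads.

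Substrate rigidity was not used to choose the set, so Cd97 was tested here. In KDEL cells its signal was lower on 308 kPa than on 1 kPa, with a log2 fold change of -0.77 (SE 0.33, 95% interval -1.50 to -0.05). The groups did not overlap, which held for 1 of the 10 members and for 4.78% of all genes tested. The unadjusted p was 0.0393 and the adjusted p was 1 (limma, Benjamini-Hochberg over all genes tested), so the difference did not pass the threshold. The ratio of 308 kPa to 1 kPa within a run was 0.382, 0.665 and 0.784, and the smallest came from library 8. Without libraries 3, 7 and 8 the log2 fold change was -0.49. In SUN1L cells the log2 fold change with rigidity was -0.24 (95% interval -0.97 to 0.49), and 0.17 without those libraries. The difference between the effects of rigidity in SUN1L and KDEL cells, the interaction, was 0.53 (SE 0.47, 95% interval -0.50 to 1.56, limma adjusted p = 1).

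With Y27, Cd97 was at 131, 144 and 190 in libraries 12, 24 and 36. With blebbistatin it was at 203 and 137 in libraries 10 and 22, and library 34 was at 167. All 6 of these libraries lay above every SUN1L library and within the range of 110 to 226 of the untreated KDEL cells on the same gel. The log2 fold change was -0.09 for Y27 (95% interval -0.86 to 0.68, limma adjusted p = 0.974) and 0.04 for blebbistatin (95% interval -0.83 to 0.90, limma adjusted p = 1). These values were -0.37 and -0.25 without library 8, the lowest untreated library. Ordered by mean, KDEL cells on 1 kPa (279) came first, KDEL cells on 308 kPa and blebbistatin both had 170, Y27 had 155, and SUN1L cells on 1 kPa (43) and 308 kPa (36.6) came last. The 3 middle groups overlapped each other, as did both SUN1L groups. Over the 17 libraries without library 34, 0.147% of the variance of log2 Cd97 lay between runs. The share between groups, 93.4%, includes the split of SUN1L and KDEL libraries on which the set was chosen, so it is a description only.

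Cd97 lies on chromosome 8 from 83723251 to 83741326 on the minus strand, in positions that match GRCm38. It overlaps 3642 bp of Ddx39, an RNA helicase gene on the opposite strand. The library kit is not stated to keep strand, so reads in the overlap cannot be told apart. Ddx39 had 4795 to 12145 signal units per library, with log2 fold changes of SUN1L against KDEL of -0.26 on 1 kPa and -0.10 on 308 kPa. Of the 12 other genes of the table within 250 kb of Cd97, the olfactory receptor gene Olfr370 was at the lowest value throughout and 11 were tested. Of these, 10 are given here, in order of position: Ndufb7 (-0.08), Tecr (-0.28), Dnajb1 (-0.09), Gipc1 (-0.21), Ptger1 (0.03), Ddx39 (-0.18), Lphn1 (-0.07), Gm10644 (0.05), Asf1b (-0.62) and Prkaca (-0.17), where each value is the log2 fold change of SUN1L against KDEL as the mean of both gels. None of the 10 was called on either gel by limma, and none had an unadjusted p under 0.05 there. Asf1b, a histone chaperone gene of dividing cells, had the lowest value, with a log2 fold change of -1.06 on 1 kPa and -0.18 on 308 kPa, and of -0.22 and -0.11 without libraries 3, 7 and 8.

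**Figure D2:**
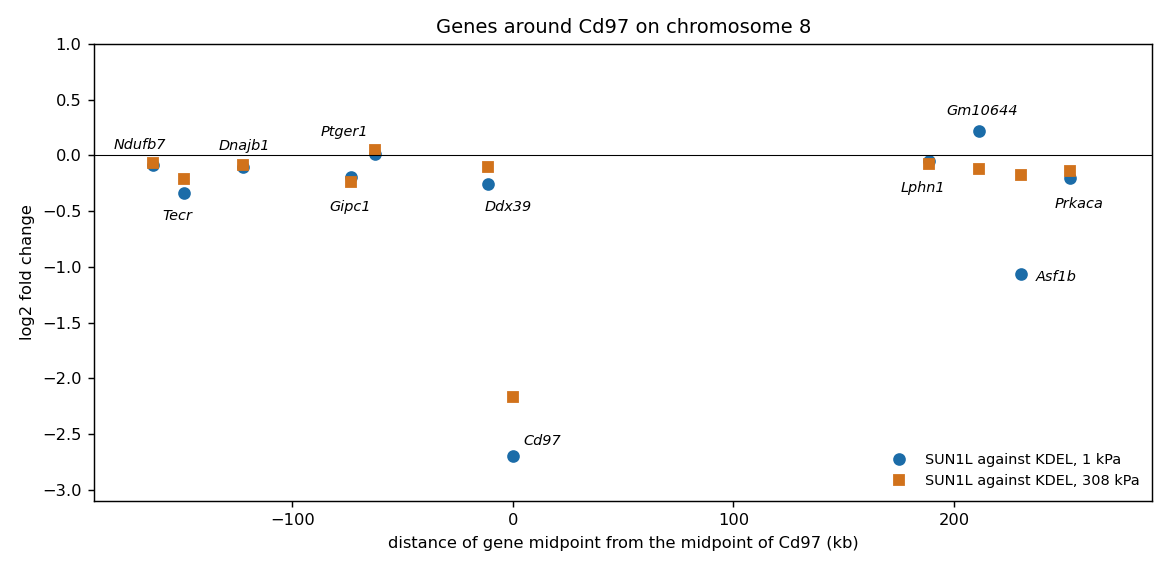
Log2 fold change of SUN1L against KDEL cells for Cd97 and 10 tested genes around it, by the distance of gene midpoints in kb; circles are 1 kPa and squares 308 kPa. Cd97 is at -2.70 and -2.17, and the lowest other value is that of Asf1b on 1 kPa, at -1.06.

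Among the other 9 members, none was called in SUN1L against KDEL cells. A call needed a 2-fold difference or more with a limma adjusted p under 0.05, which 14 genes reached on 1 kPa (0.0874% of those tested), 10 on 308 kPa (0.0624%) and 29 in the mean of both (0.181%). At an unadjusted p under 0.05, limma found 0 of the 9 members on 1 kPa (4.54% of all genes), 0 on 308 kPa (2.53%) and 1, Celsr2, in the mean of both (6.8%). In each of these comparisons 7 of the 9 were lower and 2 higher, and the mean of both is made of the other 2. The 7 on 1 kPa include Celsr1 at 0.00 and Gpr125 at -0.01, so the count says little about size. The median of the 9 log2 fold changes was -0.03 on the soft gel (-0.01 over all genes) and -0.12 on the stiff gel (-0.03 over all genes). For rigidity, limma called 0 of the 10 members and 0.0% of all genes in KDEL cells and in SUN1L cells, with 1 member (Cd97) and 0 members at an unadjusted p under 0.05 (1.37% and 1.93% of all genes). The interaction called 0 members and 0.0% of genes, with 0 members at an unadjusted p under 0.05 (0.905% of genes). With Y27 and with blebbistatin limma also called 0 of the 10 members and 0.0% of all genes, with 1 member (Celsr1) and 0 members at an unadjusted p under 0.05 (5.8% and 3.04% of genes).

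**Figure D3:**
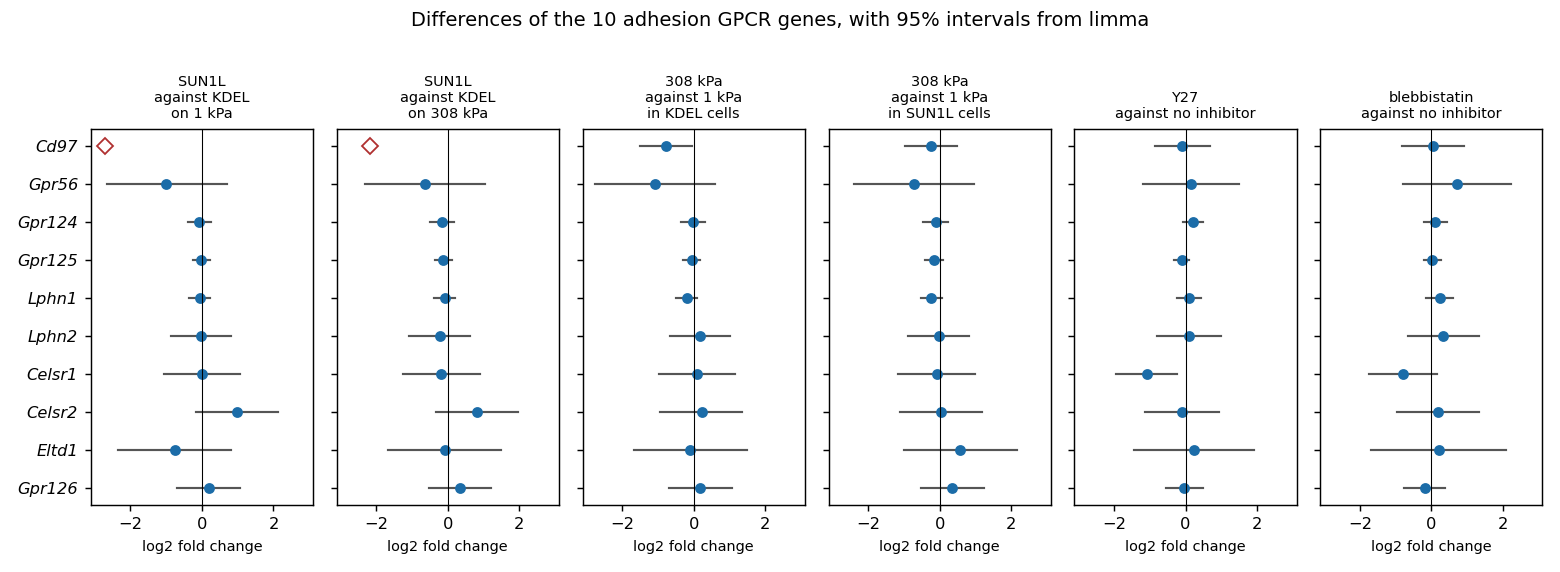
Log2 fold changes of the 10 genes in 6 comparisons (points), with 95% intervals from limma (lines); open diamonds mark Cd97 in the comparisons that chose it, which have no interval. The intervals of Gpr124, Gpr125 and Lphn1 are the narrowest, and Celsr1 with Y27 and Cd97 in KDEL cells on 308 against 1 kPa exclude 0 before adjustment.

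Gpr56 codes for a receptor of collagen III and transglutaminase 2. In KDEL cells on 1 kPa it was at 3008, 3487 and 2023 in libraries 4, 16 and 28. In SUN1L cells on 1 kPa it was at 611, 2631 and 1691 in libraries 3, 15 and 27. The groups overlapped, since library 15 exceeded library 28, while library 3 was by far the lowest of the 6. On 308 kPa, KDEL libraries 8, 20 and 32 were at 547, 2489 and 1657. SUN1L libraries 7, 19 and 31 were at 282, 1790 and 1191. The 3 lowest values of Gpr56 in the study, 282, 547 and 611, were in libraries 7, 8 and 3, the same 3 that were low in mitosis genes. Whether a lower share of dividing cells has a part in these values was not tested.

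The log2 fold change of Gpr56 in SUN1L against KDEL cells was -0.99 on 1 kPa (SE 0.76, 95% interval -2.66 to 0.69, limma adjusted p = 0.93). It was -0.64 on 308 kPa (95% interval -2.31 to 1.04, limma adjusted p = 1). The value on 308 kPa turned with a single library, to 0.15 without library 7 and to -1.27 without library 8, and that on 1 kPa was -0.39 without library 3. Without libraries 3, 7 and 8 together the differences were -0.39 and -0.48. Within runs, SUN1L libraries had 0.203, 0.754 and 0.836 of the KDEL signal on 1 kPa and 0.515, 0.719 and 0.719 on 308 kPa, below 1 in all 6 pairs. The same pairs across rigidity were also all below 1, at 0.182, 0.714 and 0.819 in KDEL cells and 0.461, 0.680 and 0.705 in SUN1L cells. With the run as a block, the mean SUN1L difference of -0.81 had an SE of 0.30 in place of 0.54 and an unadjusted p of 0.0244 in place of 0.159. Its limma adjusted p was 0.26 with the block, so it did not pass the threshold. The rigidity difference in KDEL cells was -1.08 (SE 0.76, limma adjusted p = 1, and 0.781 with the block) and -0.45 without library 8. In SUN1L cells it was -0.72, but 0.07 without library 7, -1.32 without library 3 and -0.53 without libraries 3, 7 and 8.

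Inhibitor libraries of Gpr56 were at 1159, 1935 and 1389 with Y27 and at 1629 and 2829 with blebbistatin, and library 34 was at 1495. They overlapped the untreated KDEL libraries. The log2 fold changes were 0.16 for Y27 (95% interval -1.19 to 1.50) and 0.71 for blebbistatin (95% interval -0.79 to 2.22). Without library 8, the lowest untreated library, they were -0.47 and 0.08. In each of the 5 groups of 3 libraries, the library numbered 15 to 24 was the highest.

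**Figure D4:**
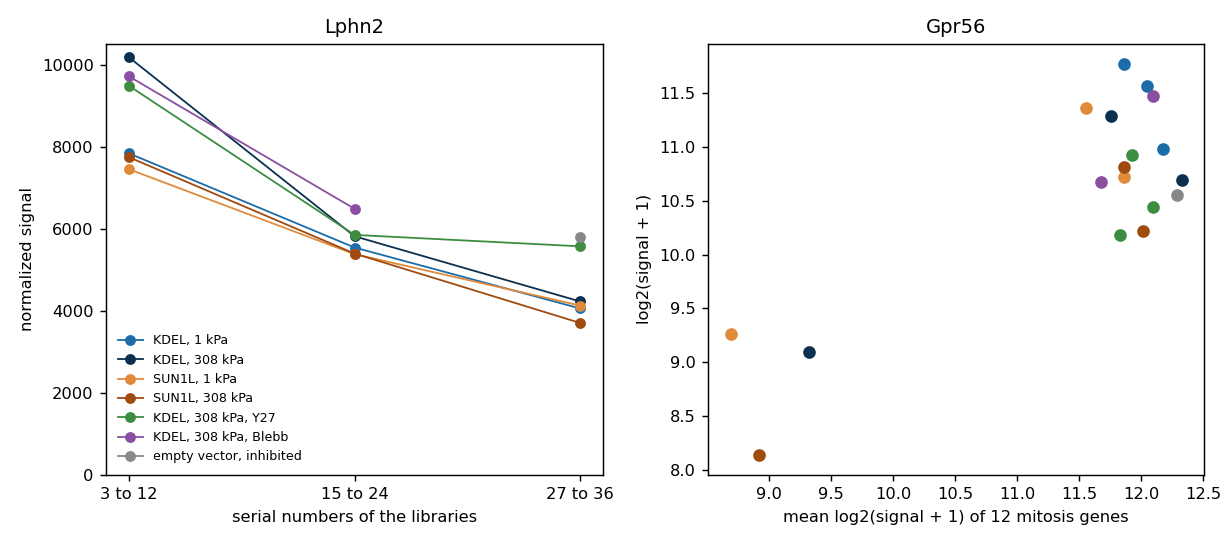
Left, Lphn2 normalized signal by run of serial numbers, with lines joining libraries of a group; right, Gpr56 log2(signal + 1) against the mean log2(signal + 1) of 12 mitosis genes, a point per library in the same colours. Lphn2 is highest in libraries 3 to 12 in every group, and the 3 lowest Gpr56 libraries are the 3 with mitosis means of 8.69 to 9.32.

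Gpr124 and Gpr125 code for related receptors, and GPR124 acts with RECK in signalling by the Wnt ligands WNT7A and WNT7B. Gpr124 was the most abundant member, between 6648 and 10399 in all 18 libraries. Its means were 8269 ± 1927 in KDEL and 7767 ± 258 in SUN1L cells on 1 kPa, and 8013 ± 739 and 7191 ± 325 on 308 kPa (SD, n = 3 each). The log2 fold changes of SUN1L against KDEL were -0.07 (95% interval -0.40 to 0.27) and -0.15 (95% interval -0.49 to 0.18). With Y27 it was at 9748, 9280 and 8643, with a log2 fold change of 0.21 (95% interval -0.08 to 0.49, limma adjusted p = 0.854). Library 34 had 9928, above all but library 4. In SUN1L cells the 308 kPa libraries (7033, 7565 and 6975) all lay below the 1 kPa libraries (8061, 7581 and 7659), by -0.11 on the log2 scale. The margin between the groups was small, 7565 against 7581.

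Gpr125 was the steadiest member, with 1756 to 2499 signal units. Its means were 2204 ± 37.4 in KDEL and 2189 ± 160 in SUN1L cells on 1 kPa, and 2124 ± 185 and 1963 ± 207 on 308 kPa (SD, n = 3 each). The SUN1L difference was -0.01 on 1 kPa (95% interval -0.26 to 0.23) and -0.12 on 308 kPa (95% interval -0.36 to 0.13) on the log2 scale. These intervals leave out a 2-fold difference in either direction.

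Lphn1 and Lphn2 code for latrophilins, the receptors of teneurins and FLRT proteins on neighbouring cells. Lphn1 was at 4908, 4522 and 3547 in KDEL cells and at 3972, 4214 and 4205 in SUN1L cells on 1 kPa. On 308 kPa it was at 3742, 4191 and 3297 in KDEL cells and at 3577, 3566 and 3446 in SUN1L cells. The KDEL and SUN1L groups overlapped on both gels, with log2 fold changes of -0.05 (95% interval -0.35 to 0.24) and -0.08 (95% interval -0.37 to 0.21). In SUN1L cells every 308 kPa library was below every 1 kPa library, with a log2 fold change of -0.23 (95% interval -0.52 to 0.07, limma adjusted p = 1). Gpr124 and Lphn1 were thus 2 of 10 members whose rigidity groups did not overlap in SUN1L cells, beside 4.77% of all genes. Lphn1 shares 9626 bp with Gm10644 on the opposite strand, a gene at 44.1 to 97.9 signal units.

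Lphn2 followed the serial numbers of the libraries rather than the groups. In KDEL cells it was at 7840, 5543 and 4056 on 1 kPa and at 10183, 5818 and 4227 on 308 kPa, in libraries of the first, second and last run. In SUN1L cells it was at 7453, 5381 and 4127 on 1 kPa and at 7746, 5396 and 3703 on 308 kPa. With Y27 it was at 9488, 5851 and 5572, and with blebbistatin at 9718 and 6488. Library 34, in the last run, was at 5799. In the 5 groups with a library in every run, the library numbered 3 to 12 was the highest and the one numbered 27 to 36 the lowest. Over 17 libraries, Lphn2 lay between 7453 and 10183 in libraries 3 to 12, between 5381 and 6488 in libraries 15 to 24 and between 3703 and 5572 in libraries 27 to 36. Runs held 86.7% of the variance of log2 Lphn2 and groups 17.4%, shares that overlap because blebbistatin is missing from the last run. The labels do not say what a run shares, and a cause was not tested.

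For Lphn2, SUN1L and KDEL cells differed by -0.03 on the soft gel and -0.23 on the stiff gel on the log2 scale. These differences were -0.25 and -0.15 without libraries 3, 7 and 8. In the fit of all 12 libraries, each had an SE of 0.38. With the run as a block, the SE was 0.09, the unadjusted p on 308 kPa was 0.0304 and the limma adjusted p was 0.796. Neither fit gave a call.

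**Figure D5:**
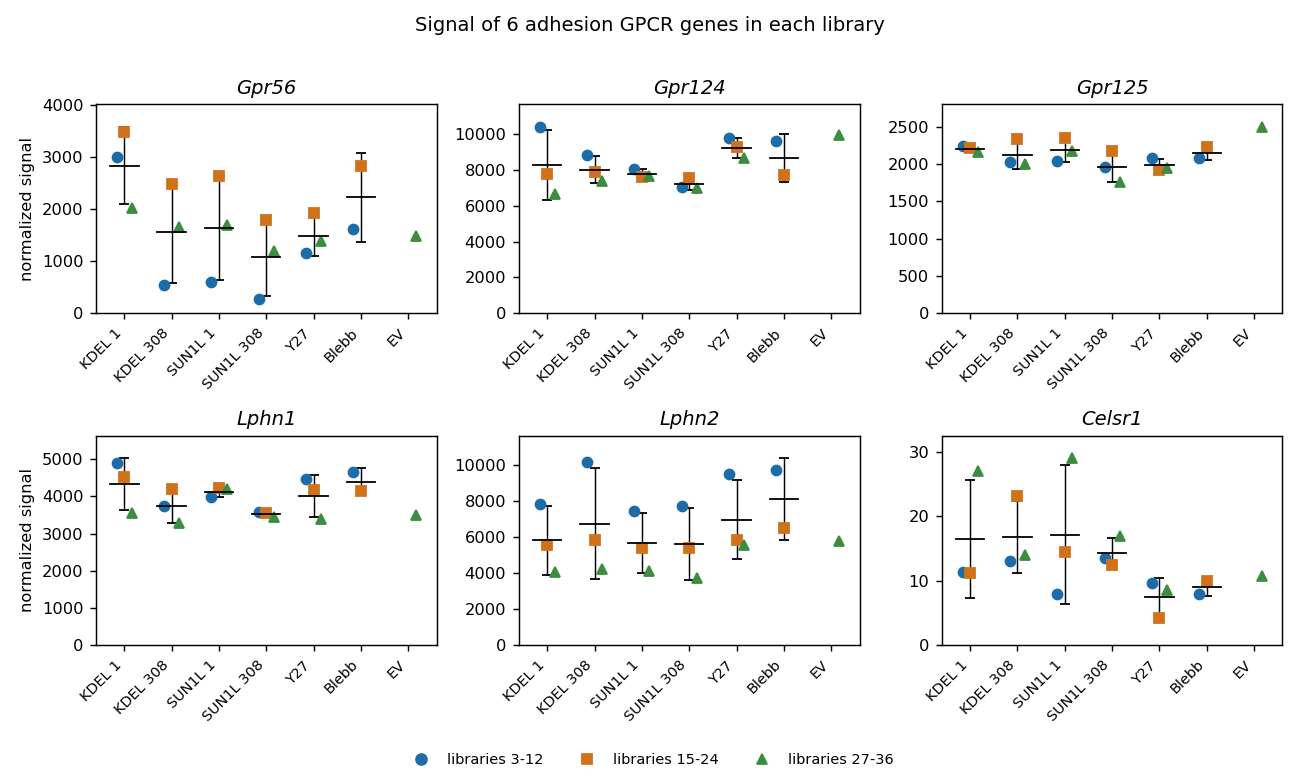
Normalized signal (linear axes from 0) of 6 members in each library, by group; marker shapes show runs, horizontal lines the mean and bars the SD, and EV is library 34. Gpr125 stays between 1756 and 2499, and Celsr1 is below 30 throughout. Lphn2 falls from the first run to the last within each group that has a library in every run.

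Celsr1 and Celsr2 code for cadherin-like receptors of planar cell polarity. Celsr1 was detected in all 18 libraries but at only 4.21 to 29.0 signal units. Untreated KDEL libraries on 308 kPa had 13, 23.2 and 14, those with Y27 had 9.68, 4.21 and 8.60, and those with blebbistatin had 7.95 and 9.97. Every inhibitor library was below every untreated library, and library 34 had 10.7. Groups that do not overlap were found for 8.57% of all genes with Y27 and for 2090 of 16021 genes (13%) with blebbistatin. The log2 fold change was -1.08 with Y27 (SE 0.36, 95% interval -1.94 to -0.23, unadjusted p = 0.0206, limma adjusted p = 0.803). With blebbistatin it was -0.80 (SE 0.40, 95% interval -1.75 to 0.16, limma adjusted p = 1). Both comparisons share the untreated libraries, and neither passed the threshold. In SUN1L against KDEL cells the log2 fold changes of Celsr1 were 0.00 (95% interval -1.07 to 1.07) and -0.18 (95% interval -1.25 to 0.89). They were 0.43 and -0.30 without libraries 3, 7 and 8.

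Celsr2 was at 5.63, 1.00 and 4.08 in KDEL cells and at 12.9, 6.81 and 3.89 in SUN1L cells on 1 kPa. On 308 kPa it was at 2.16, 5.90 and 3.83 in KDEL cells and at 5.35, 7.46 and 9.74 in SUN1L cells. The groups overlapped on both gels. The mean log2 fold change was 0.90 (SE 0.37, 95% interval 0.09 to 1.72, unadjusted p = 0.0321, limma adjusted p = 0.685), and it was 0.66 without libraries 3, 7 and 8. Eltd1, an endothelial receptor gene, was above the lowest value in 14 libraries and reached 9.80. Gpr126, known for its part in myelination by Schwann cells, was above it in 5 libraries and reached 4.97. At these levels of a few read pairs, limma called no difference between groups, and what this depth could detect was not tested.

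The 14 tested family genes outside the set gave 0 calls by limma in all 8 comparisons. In the mean SUN1L comparison 8 were higher and 6 lower, with a median of 0.04 beside -0.02 over all genes, and 2 had an unadjusted p under 0.05, beside 6.8% of all genes. Without libraries 3, 7 and 8, 6 were higher and 8 lower, with a median of -0.06. The 2 genes were Celsr3, the third gene of the cadherin-like group, with a log2 fold change of 0.71 (unadjusted p = 0.0132, limma adjusted p = 0.585), and Gpr64 with 0.68 (unadjusted p = 0.0429), which was named after its value was seen.

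Ligands and partners of the receptors were taken from lists written from general knowledge, and limma called none of their genes in any of the 8 comparisons. Of 8 genes for binding partners of CD97, 7 were tested. Cd55, its best known ligand, was above the lowest value in 3 libraries and reached 2.33, and Daf2, a second CD55 gene of the mouse, was at 1 throughout. Thy1, another ligand, was well expressed at 1132 to 4694. Thy1 also had the lowest mean SUN1L log2 fold change of the list, at -0.33 (-0.15 without libraries 3, 7 and 8), and the integrin gene Itga5 the highest, at 0.18. Without libraries 3, 7 and 8 the lowest of the list was Lpar1, at -0.27. In KDEL cells all 7 tested partners were lower on 308 kPa, with a median of -0.26 beside -0.01 over all genes, and 0 had an unadjusted p under 0.05 (1.37% of all genes). In the same comparison, which includes library 8, 12 of 12 mitosis genes (median -0.89) and 7 of 8 fibroblast markers (median -0.26) were lower. Without libraries 3, 7 and 8, 5 of the 7 partners were lower with a median of -0.08, and 6 of the 12 mitosis genes with a median of 0.03. The part of these shifts in the partners' values was not tested.

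For Gpr56 and Gpr126, 7 of 7 partner genes were higher with Y27 (median log2 fold change 0.43) and with blebbistatin (median 0.21), with 1 at an unadjusted p under 0.05 in each (5.8% and 3.04% of all genes), against shared controls that include library 8. The 12 mitosis genes were also all higher (medians 0.85 and 0.70), as were 7 and 8 of the 8 fibroblast markers (medians 0.57 and 0.36), a list that shares Col3a1. Without library 8, 6 of the 7 partners were higher with Y27 (median 0.17) and 3 of 7 with blebbistatin (median -0.09), and 2 of 12 mitosis genes were higher with either (medians -0.08 and -0.16). Their SUN1L values ran from -0.44 for the collagen gene Col4a1 to 0.37 for Col3a1, which was 0.08 without libraries 3, 7 and 8. For Gpr124 and Gpr125, the 4 partner genes ran from -0.20 for Reck to 0.54 for Wnt7a, which had a median of 3.72 signal units. For latrophilin ligands, 6 of 8 genes were tested and ran from -0.20 for Tenm3 to 1.14 for Flrt1. Tenm3 lay between 1.72 and 9.80 signal units and Flrt1 between 1 and 81.9 (limma adjusted p = 0.896). Without libraries 3, 7 and 8, Flrt1 was at 0.12 on 1 kPa, 2.17 on 308 kPa and 1.15 as the mean. Among 11 planar cell polarity genes, Prickle1 was highest at 0.16 and Fzd6, a frizzled receptor gene, lowest at -1.32 (unadjusted p = 0.00826, limma adjusted p = 0.515). Fzd6 had a median of only 7.38 signal units, a few read pairs. It was the 1 gene of the 11 with an unadjusted p under 0.05 by limma, beside 6.8% of all genes.

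The genes whose log2 signal was most like that of Cd97 were sought among 10591 tested genes with a mean of at least 100, over 17 libraries without library 34. The most positive Pearson coefficients were those of Ttyh3 (0.932), Foxf1 (0.901), Serpina1a (0.881), Lipg (0.875) and Gm15107 (0.873). The most negative were those of Sun1 (-0.93), which reads of the construct feed, and Cox7b2 (-0.923), Akr1c13 (-0.91), Ddx19b (-0.892) and Ano3 (-0.89). The points share the split into SUN1L and KDEL lines. Within the lines the likeness was weaker, and some coefficients were near 0 or changed sign. For Ttyh3 the coefficient was 0.507 over the 11 KDEL libraries and 0.0459 over the 6 SUN1L libraries. For Foxf1 it was 0.395 and 0.782, and for Sun1 -0.473 and 0.109. Serpina1a had -0.223 and 0.000308, and Gm15107 had 0.603 and -0.446.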

How the data were processed

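RNA of 18 libraries was analysed. The authors aligned paired-end reads with TopHat 2.0, removed low-quality, unpaired and duplicate reads in AvadisNGS, and deposited normalized signal on a linear scale (trimmed mean of M-values), in which values under 1 were set to 1. Duplicate removal lowers very high values, and reads shared by overlapping genes cannot be separated. The methods name mm9, but 98.8% of 21309 genes matched by name lie within 1 kb of GRCm38.p6 positions and 12.3% of 20547 on NCBIM37, so positions are given as in the table. Library 34 was read from a column that carries the number 35, matched by its heading of an empty vector and Y27, which is one of its labels.

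Limma 3.58.1 (R 4.3.3) was run with a variance trend on log2(signal + 1) of the 16021 of 22019 genes that exceeded the lowest value in 3 or more libraries. The SUN1L and rigidity comparisons used 12 libraries and the inhibitor comparisons 8. A call needed a Benjamini-Hochberg adjusted p under 0.05 over all genes tested and a 2-fold difference, the study's thresholds, while its z-score test was replaced by limma, which uses the spread between libraries. Tests were two-sided. An exact permutation test of 3 against 3 cannot go below 0.1. On simulated data of the SUN1L comparison on 1 kPa over 16021 genes, 19% of 200 genes changed 2-fold were recovered, 73% of those changed 4-fold and 90% of those changed 8-fold, with at most 6 false calls.

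The labels number no replicates. Serial numbers form 3 runs (3 to 12, 15 to 24, 27 to 36) with 1 library of each group, except that the last holds library 34 and no library labelled blebbistatin only. Deviations from group means correlated between 0.104 and 0.673 in 18 pairs of libraries of the same run and between -0.606 and 0.141 in 36 pairs of different runs, so the run was used as a block in an alternative fit.

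The members and lists were chosen with earlier results of these data known. Named genes were the members, family genes above the lowest value in every library or called, the lowest and highest gene of each partner list in the mean SUN1L comparison, genes within 250 kb of Cd97, the 5 most positive and 5 most negative genes by likeness to Cd97, and Sun1. Family genes at the lowest value throughout, Gpr64, Cd55, Daf2, Lpar1 and the leukocyte, endothelial and epithelial markers were named outside this rule, after their values were seen. Alternatives were pseudocounts of 8 and 0.1, no filter, a mean of at least 10, quantile normalization, no trend, all 18 libraries in 1 fit, the adjusted p alone, the block, library 34 counted with either inhibitor, and each library left out. Leaving out libraries 3, 7 and 8 together, for the members, the lists and the genes named beside them, was added after the data were seen. Sequences, microRNA libraries and protein data were not used here, and 1 tested gene near Cd97 and 1 gene list are not reported here.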

Additional observations from a re-analysis of the deposited data

How the results depend on the processing

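No member was called in any of 141 fits, Cd97 left out where the comparison chose it. Of 1386 log2 fold changes of members recomputed under the 29 alternatives, 1380 stayed within 1 SD of their value and 6 moved further. These were Cd97 with rigidity in SUN1L cells (0.17 without libraries 3, 7 and 8) and Gpr124 with blebbistatin (-0.05 and 0.27 without either library). The others were Gpr126, near the lowest value, in 3 comparisons without library 19. Part of the 1380 could not move. The adjusted p alone, the changed filters, no trend and all 18 libraries in 1 fit leave log2 fold changes unchanged. The block does so too in the fit of 12 libraries. Moves within 1 SD included changes of sign. For Gpr56 on 308 kPa in SUN1L against KDEL cells, values ran from -1.27 to 0.15 beside -0.64. With rigidity in SUN1L cells they ran from -1.32 to 0.07 beside -0.72. The replicate block on runs changed no member's call. It raised the number of genes called in the mean SUN1L comparison from 29 to 58.

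Counts of genes called over all genes moved between the alternatives. All 18 libraries in 1 fit gave 22 genes in place of 14 for SUN1L on 1 kPa and 16 in place of 10 on 308 kPa. Without libraries 3, 7 and 8 these counts were 7 and 5, the mean of both gave 17, rigidity in SUN1L cells and the interaction gave 1 each in place of 0, and Y27 gave 3 in place of 0. Leaving out single libraries gave counts of 8 to 14 for SUN1L on 1 kPa (8 without library 4), 18 to 27 for the mean of both (18 without library 16 or 20 and 19 without library 19) and 0 to 3 for Y27 (3 without library 8). The cause of these shifts was not tested.

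Depth limits Celsr1, Celsr2, Eltd1 and Gpr126, whose signals correspond to a few read pairs, and the Cd97 level in SUN1L cells. Blebbistatin has 2 libraries, and the spread of Gpr56 and Lphn2 between libraries leaves intervals wide.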
